A study of Mus musculus with 18 samples.

Results

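The 7690 regions described here were listed as accessible in MyoD-null myoblasts and in no other group, out of 139354 merged regions on chromosomes 1 to 19. They were chosen by merging the peaks of 4 deposited lists that overlapped by at least 1 bp and keeping the merged regions that held a peak of the MyoD-null myoblasts and none of the other 3 lists. The lists come from ATAC-seq of mouse skeletal muscle cells, with 3 samples in each group. The groups were MyoD-null myoblasts, wild-type myoblasts, and MyoD-null and wild-type myocytes after 24 h of myogenic differentiation. The sources used here do not state the MyoD allele, the strain and age of the mice, the purity of the cells or any treatment of the myoblasts.

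ATAC-seq reads regulatory DNA through a transposase that cuts and tags chromatin where nucleosomes leave it open, mostly at promoters and enhancers. MyoD is a basic helix-loop-helix factor that binds E-box sequences and can open chromatin at muscle genes, in proliferating myoblasts as well as during differentiation. The set addresses which sites were detected in proliferating cells without MyoD and in none of the other groups. The peak lists carry mm9 coordinates, and no genome or annotation of that build was used here, so the regions are given by position, without genes or sequence. For the same reason the Myod1 gene and muscle marker genes were not checked.

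Each list was called by the authors on merged samples. There is thus 1 list per group, no error between replicates and no test of the groups, and intervals below are 95% Wilson intervals that cover counting error only. The lists held 100192 peaks for MyoD-null myoblasts, 96420 for wild-type myoblasts, and 86575 and 109753 for the myocytes deposited as MyoD-null and as wild type. The peak names of both myocyte lists carry the opposite genotype to their labels. Since all 3 other lists had to lack a peak, membership is the same under either reading.

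The members made up 5.52% of all merged regions (5.40 to 5.64) and 8.03% of the 95733 regions with a MyoD-null myoblast peak (7.86 to 8.21). The mirror set, listed only in wild-type myoblasts, held 5236 regions or 3.76% (3.66 to 3.86). A further 4749 regions (3.41%) belonged to the MyoD-null myocyte list alone and 22506 (16.2%) to the wild-type myocyte list alone, by their deposited genotypes. Of the 14209 regions listed in MyoD-null and not in wild-type myoblasts, which were 14.8% of the MyoD-null regions, the members were 54.1% (53.3 to 54.9). The rest were also listed in myocytes: 3099 in those deposited as wild type alone, 1142 in those deposited as MyoD-null alone, and 2278 in both. In the other direction 11653 regions, 12.5% of the wild-type myoblast regions, had no MyoD-null myoblast peak. Of these, 44.9% (44.0 to 45.8) were listed only in wild-type myoblasts. Both counts are what the rule selects and depend on how much each list holds, so no difference between the genotypes is drawn from their sizes.

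The members were weak, narrow sites. Fold enrichment is the number of reads at the summit over the local background, as the authors' peak caller gave it. Its median was 2.93 for members (quartiles 2.65 and 3.20, range 1.43 to 5.03), beside 3.86 for the other 92502 peaks of the same list (quartiles 3.14 and 5.06, highest 18.1). Of the members, 2 reached the upper quartile of fold in their list, 298 (3.88%, 3.47 to 4.33) reached its median, and 4573 (59.5%, 58.4 to 60.6) lay under its lower quartile. The median −log10 q, the peak caller's false discovery measure, was 5.56 for members and 13.1 for the other peaks. A q of 1e-10 or lower was given to 249 members. Every member region held exactly 1 peak. Strength decides whether a peak is listed, so these values describe what the rule picked.

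The members were also narrow. The median member was 245 bp wide (quartiles 214 and 289), beside 418 bp for other peaks of the list (quartiles 304 and 636). The shortest width in the list was 200 bp, and 816 members (10.6%, 9.94 to 11.3) had exactly this width, against 1.54% (1.46 to 1.62) of the other peaks. Only 79 members (1.03%) were wider than 500 bp, against 37.7% of the other peaks. The widest was at chr12:57634189-57635064, with 876 bp, a fold of 2.66 and 34 reads. The next were chr8:72121781-72122654, with 874 bp, a fold of 2.70 and 28 reads, and chr14:57751974-57752725, with 752 bp, a fold of 3.51 and 34 reads. None of these was among the strongest members. The summit lay in the central 50% of the peak's width in 84.7% of members and in 90.7% of other peaks.

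The number of reads at the summit of each peak was recovered from the deposited fold and p-value. Members had a median of 30 reads at the summit (quartiles 27 and 34), and other peaks of the list had 49 (quartiles 37 and 73). The fewest reads with which a site over the genome-wide background could enter the list were 21, so the median member stood 9 reads above this limit. That background applied to 3504 members (45.6%), which had a median of 29 reads. The other members lay over a higher local background, where the limit is higher. In bulk chromatin, a low read count from a few cells with an open site and from many cells with a partly open one cannot be told apart.

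The share of MyoD-null myoblast peaks that were listed in no other group fell steeply with reads. It was 48.4% (42.7 to 54.2) of the 287 peaks with 21 to 23 reads, and 30.3% (29.2 to 31.4) of those with 27 to 29. It was 8.07% (7.60 to 8.57) at 35 to 39 reads and 1.06% (0.894 to 1.26) at 50 to 59. Of the 19690 peaks with 80 reads or more, 15 were members. All of these lay over a local background above 30 reads, where members had folds of at most 2.48. These strata hold the same peaks that the rule sorted and are a description.

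**Figure D1:**
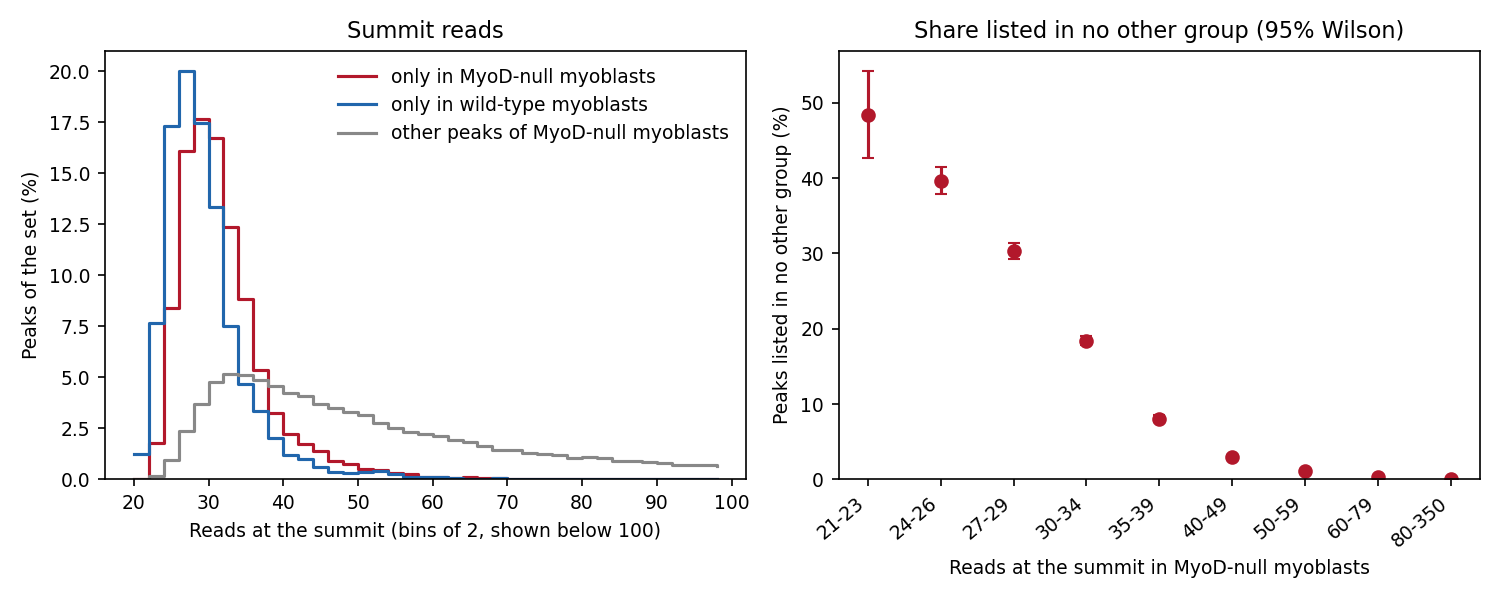
Left, distribution of reads at the summit, as the percent of each set in bins of 2 reads, for regions only in MyoD-null myoblasts (red), only in wild-type myoblasts (blue) and the other peaks of MyoD-null myoblasts (grey). Right, percent of MyoD-null myoblast peaks listed in no other group by summit reads, with 95% Wilson intervals. Members cluster around a median of 30 reads while other peaks of the list have a median of 49, and the share drops from 48.4% at 21 to 23 reads to 1.06% at 50 to 59.

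A missing peak in another list puts an upper limit on the reads there, and that limit can be set beside the reads of a member. Wild-type myoblasts needed 20 reads over their genome-wide background of 8.18, the myocytes deposited as MyoD-null 17 over 6.34, and those deposited as wild type 15 over 5.29. The MyoD-null myoblast background was 8.54. Members' reads were scaled by the ratio of backgrounds, which assumes equal shares of mitochondrial and other background reads. Scaled reads reached the genome-wide minimum of all 3 lists in 7301 members (94.9%), and the minimum at the member's own local background in 6907 (89.8%). That local background was the one in MyoD-null myoblasts, scaled in the same way and never below the other list's genome-wide background. On this scaling, the other members fell short of the minimum of at least 1 list. Reads were taken as fixed, without counting error, and the members were listed because of these same reads. Reaching a minimum therefore does not show that a site of unchanged accessibility would have been listed.

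The margin over that limit was small. Against wild-type myoblasts, the median member had 1.32 times the reads needed at its local background, 1192 members (15.5%) had more than 1.5 times, and 12 had more than 2 times. The largest ratio was 2.25. Against the myocytes deposited as MyoD-null the median was 1.22 and the largest 2.05, and against those deposited as wild type 1.16 and 1.94. A peak also had to span the shortest width, so an unlisted site could have held a narrow summit above these limits. The lists do not give the reads in the other groups, and for the median member a difference from wild-type myoblasts of about the stated 1.32 times would already suffice for absence.

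Peaks of like depth were also followed into the other lists. The MyoD-null myoblast list had 20950 peaks with 27 to 34 reads, of which 4666 were members. Of the 20950, 60.8% overlapped a wild-type myoblast peak, with a median of 31 reads in MyoD-null and 31 in wild-type myoblasts. The quartiles in wild type were 28 and 35. These reads are known only where wild-type myoblasts had a peak, so they lie above the listing minimum by construction, and they say nothing of the members. Overlap was 39.6% with the myocytes deposited as MyoD-null and 53.0% with those deposited as wild type. Median reads in those myocyte peaks were 29 and 31, again known only where a peak was listed.

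The 10 members with the highest fold enrichment, named by rule, lay on chromosomes 2, 3, 4, 7, 8, 11, 13 and 18. The strongest was at chr8:19767043-19767269, 227 bp wide, with 47 reads in MyoD-null myoblasts over a local background of 8.54 and a fold of 5.03. Its scaled reads were 45.0 for wild-type myoblasts, against a minimum of 20. They were 34.9 for the myocytes deposited as MyoD-null, against 17, and 29.1 for those deposited as wild type, against 15. These minima rest on its local background in MyoD-null myoblasts, since the background of the other groups at this site is not known. The nearest peak of any other list was 17087 bp away.

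The second, chr2:154796575-154796858, also had 47 reads, over a local background of 8.68, and a fold of 4.96. It stood 543 bp from a peak of the myocytes deposited as wild type, 774 bp from one of the other myocytes and 5053 bp from one of wild-type myoblasts. It thus belonged to a stretch where both myocyte lists had a peak close by. The next, chr7:131342368-131342679, had 44 reads and a fold of 4.72. Its nearest wild-type myoblast peak was 12340 bp away and its nearest myocyte peaks 59300 and 59495 bp.

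The members ranked 4 to 10 had 42 or 43 reads and folds of 4.51 or 4.61. They were chr11:99708118-99708457, chr13:60667164-60667453, chr18:66243602-66243907, chr3:67361221-67361561, chr4:88003406-88003688, chr4:90119325-90119700 and chr11:32314297-32314651. All but 1 of these had a peak of another list within 28849 bp. The exception was chr4:90119325-90119700, 376 bp wide with 42 reads, whose nearest peak lay 408014 bp away in wild-type myoblasts and 576330 and 703810 bp away in the myocytes deposited as MyoD-null and as wild type. Another stood close to a myocyte peak: chr3:67361221-67361561 was 425 bp from a peak of the myocytes deposited as wild type and 10591 bp from the nearest of wild-type myoblasts.

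**Figure D2:**
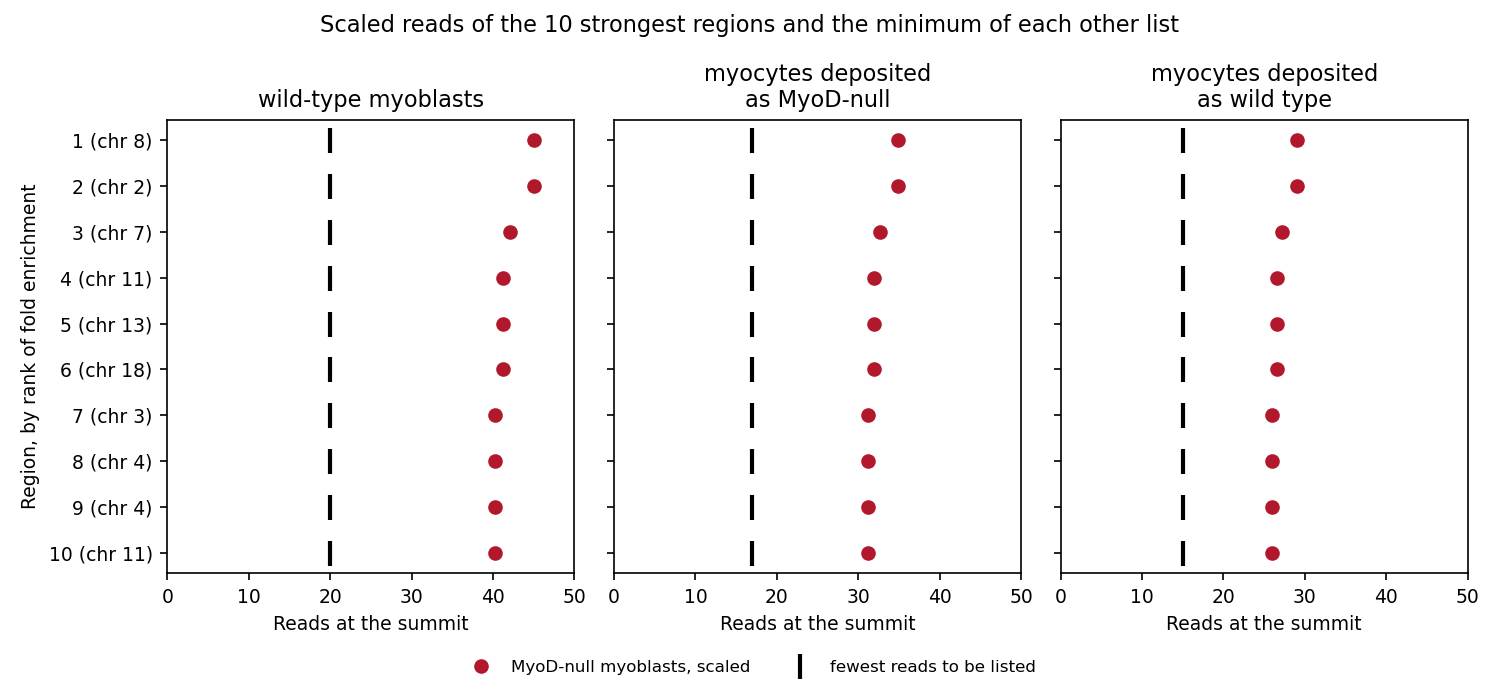
Red points are reads at the summit of the 10 strongest regions in MyoD-null myoblasts, scaled to each other list. Black ticks are the fewest reads to be listed there, at the region's local background in MyoD-null myoblasts, scaled alike. Rows are ranked by fold enrichment and panels are the 3 other lists. All points lie right of the ticks, from 45.0 against 20 for the first region in wild-type myoblasts to 26.0 against 15 for the last in the myocytes deposited as wild type.

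Members at the edge of the rule are given as a description. The lowest −log10 q among them was 2.03, at chr4:153215997-153216211, with 22 reads and a peak of wild-type myoblasts 34 bp away. Among the members closest to another list, chr2:126250529-126250778 (28 reads, fold 3.04) touched a peak of the myocytes deposited as MyoD-null without overlap, and chr9:43014389-43014621 (36 reads, fold 2.52) touched one of wild-type myoblasts. Another, chr8:101939954-101940228 (26 reads, fold 2.83), ended 2 bp from a wild-type myoblast peak. Just outside the rule, chr2:92339970-92340197 had 33 reads and a fold of 2.86 in MyoD-null myoblasts and overlapped by 2 bp a wild-type myoblast peak with 26 reads and a fold of 2.50. At chr12:32309369-32309568 (27 reads) and chr12:80851049-80851248 (29 reads) the overlap with a wild-type myoblast peak was 3 bp, and the wild-type peaks had 22 and 31 reads. Such cases were few: 62 members lay within 50 bp of a peak of another list, and 67 of the 10763 regions shared with exactly 1 other list overlapped it by 50 bp or less.

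A small number of members were set against a high local background, that is, in places where reads piled up over a wide stretch. The genome-wide background applied to 3504 members (45.6%, 44.5 to 46.7), against 24.4% (24.1 to 24.6) of the other peaks of the list. The local background exceeded 30 reads in 35 members (0.455%). These had 59 to 240 reads at the summit but folds of 1.43 to 2.48, so their many reads stood little above their surroundings. The lowest fold of all members, 1.43, belonged to chr17:39983960-39984159, with 240 reads over a background of 167. Of the 35, 9 were on chromosome 11, of which 5 lay between 3000001 and 3100000. Among these, chr11:3074369-3074606 had 121 reads and a fold of 1.61, and chr11:3050090-3050340 had 141 reads and a fold of 1.67. Repeats and regions of artefact signal were not filtered out.

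Regions listed only in wild-type myoblasts were also weak and narrow. Their median fold was 2.91 (quartiles 2.64 and 3.16, highest 4.79), beside 2.93 for the members. Their median width was 246 bp, beside 245 bp, and 11.6% (10.8 to 12.5) had the shortest width, beside 10.6% (9.94 to 11.3). They had a median of 28 reads and a median −log10 q of 5.01, beside 30 reads and 5.56 for the members. The genome-wide background applied to 55.1% (53.8 to 56.5) of them, beside 45.6% (44.5 to 46.7) of the members. Regions of the wild-type myocyte list alone, as deposited, were stronger, with a median fold of 3.77, a median width of 334 bp and a highest fold of 14.95. Regions of the MyoD-null myocyte list alone had a median fold of 3.20. Folds are set side by side here although the lists differ in depth. Low strength in MyoD-null myoblasts was also found in regions shared with myocytes but not with wild-type myoblasts. The MyoD-null myoblast peaks of regions shared with the myocytes deposited as wild type had a median fold of 2.93, 32 reads and 251 bp. Those shared with the myocytes deposited as MyoD-null had 2.90, 33 reads and 256 bp, and those shared with both had 2.93, 34 reads and 260 bp. Regions in both myoblast lists and no myocyte list had a median fold of 3.19, 33 reads and 291 bp.

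Within bins of −log10 q below 15, the share of peaks listed in a single group was larger in the MyoD-null than in the wild-type myoblast list. At 2 to 3 the intervals overlapped, with 41.9% (36.2 to 47.8) against 35.3% (31.3 to 39.5). Those for absence from the other myoblast list alone overlapped there as well. At a −log10 q of 5 to 6, 23.7% (22.7 to 24.6) of MyoD-null myoblast peaks were members, whereas 15.1% (14.3 to 15.9) of wild-type myoblast peaks were listed in wild-type myoblasts alone. At 8 to 10 the shares were 6.43% (5.98 to 6.92) and 2.92% (2.61 to 3.27). At 15 or more they were 0.0147% (6 of 40812) and 0.00527% (2 of 37965), with overlapping intervals. Absence from the other myoblast list alone gave 41.7% and 32.7% at 5 to 6, and 14.6% and 9.83% at 8 to 10. At 15 or more it gave 0.0858% (0.0617 to 0.119) for MyoD-null peaks and 0.108% (0.0796 to 0.146) for wild-type peaks. The background was 8.54 reads per base in MyoD-null and 8.18 in wild-type myoblasts, and the part of depth in these shares was not tested. Each q belongs to its own list, so an equal q need not mean equal reads or an equal margin over the other list's minimum. These bins hold the same peaks that the rule sorted. They are a description, and no difference between the genotypes is drawn from them.

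**Figure D3:**
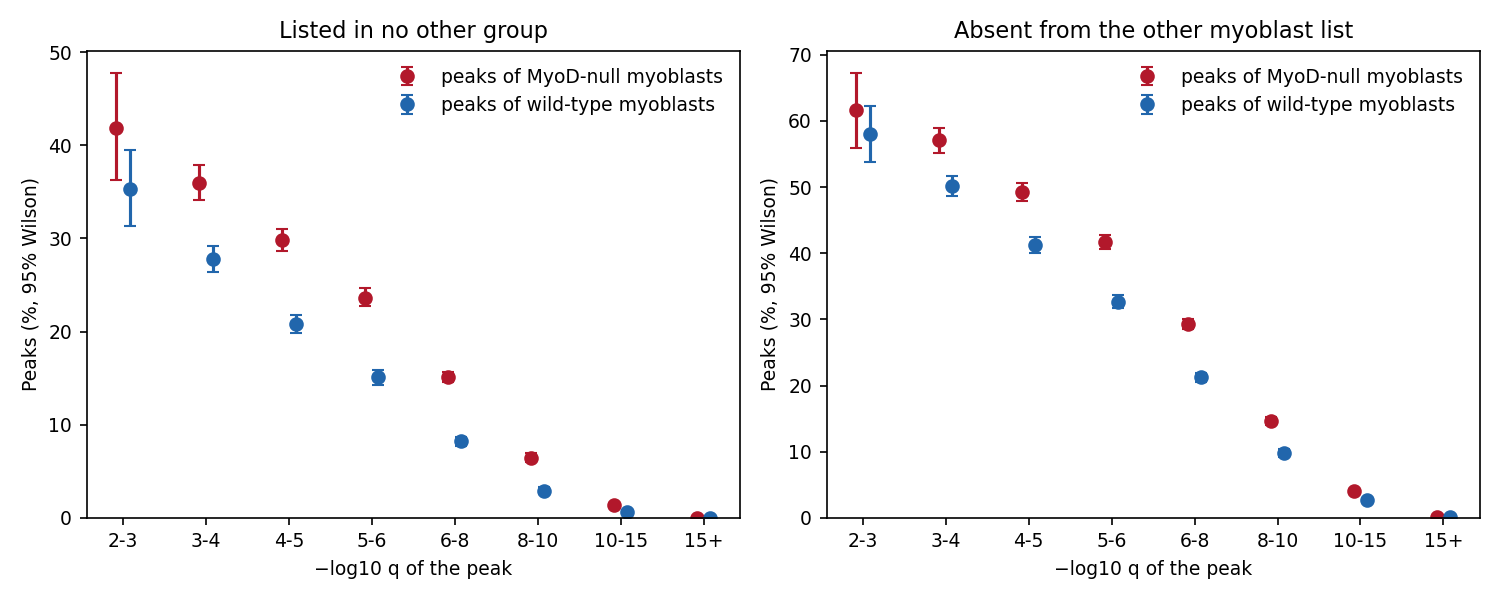
Percent of the peaks of MyoD-null (red) and wild-type myoblasts (blue), with 95% Wilson intervals, that were listed in no other group (left) or were absent from the other myoblast list (right), in bins of −log10 q. Red lies above blue up to a −log10 q of 15, as in 23.7% against 15.1% at 5 to 6 on the left. Both are near 0 beyond it, and the intervals overlap at 2 to 3.

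Shared regions beside the members did not stand apart in the ratio of reads between the genotypes. At the 81524 regions in both myoblast lists, the median log2 ratio of summit reads, MyoD-null over wild type, was 0.09 (quartiles −0.04 and 0.21), with 51 and 48 reads, while the ratio of backgrounds was 0.06. At the 3906 such regions within 5000 bp of a member it was also 0.09 (quartiles −0.05 and 0.23), with fewer reads, 47 and 45. At the 2551 within 5000 bp of a region listed only in wild-type myoblasts it was 0.10, with 46 and 43 reads. These are descriptions of 2 lists.

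The members were spread over all autosomes. Their share of merged regions ran from 4.68% (4.08 to 5.37) on chromosome 19, with 194 of 4141 regions, to 6.07% (5.60 to 6.58) on chromosome 5, with 548 of 9024. The share on all chromosomes 1 to 19 was 5.52%. Regions only in wild-type myoblasts ran from 3.14% on chromosome 19 to 4.63% on chromosome 14. The sets differ in total size, so only the spread over chromosomes within each set is described here.

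**Figure D4:**
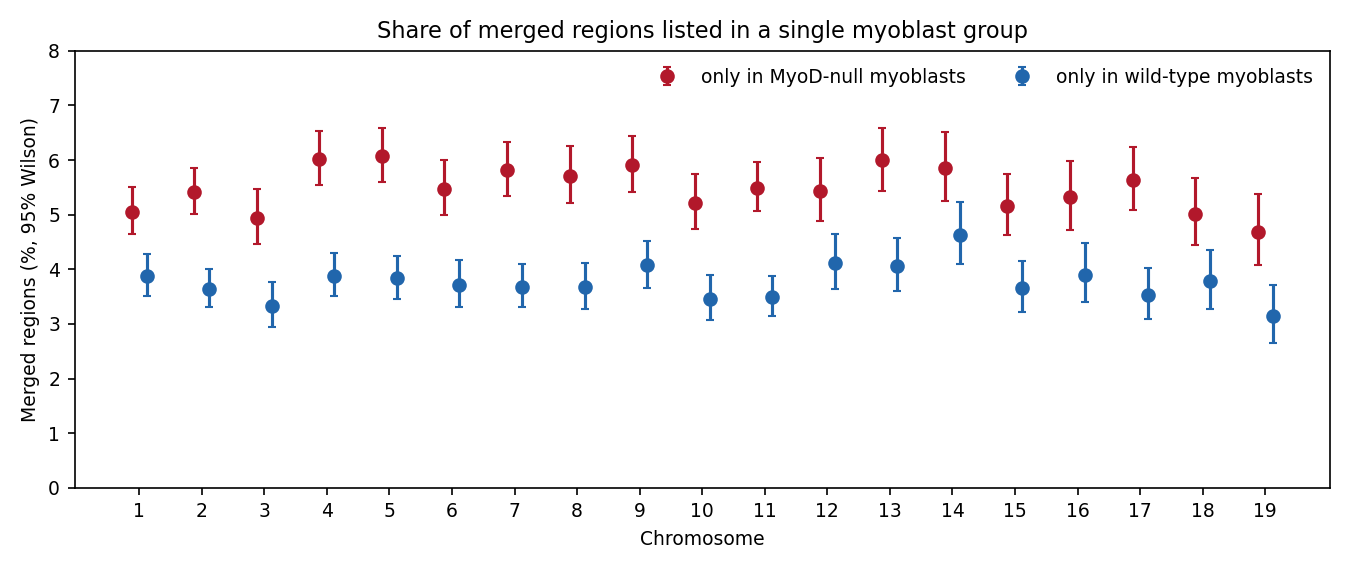
Percent of the merged regions of each chromosome listed only in MyoD-null myoblasts (red, left in each pair) or only in wild-type myoblasts (blue), with 95% Wilson intervals. Red points lie between 4.68% on chromosome 19 and 6.07% on chromosome 5, and blue points between 3.14% on chromosome 19 and 4.63% on chromosome 14.

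Most members lay near other accessible sites without adjoining them. The median distance from a member's edge to the closest peak of any other list was 4125 bp (quartiles 1445 and 9268). Of the members, 143 (1.86%) were within 100 bp of such a peak, 18.9% within 1000 bp and 55.7% (54.6 to 56.8) within 5000 bp. The closest wild-type myoblast peak was a median of 5680.5 bp away from a member. Regions only in wild-type myoblasts were spaced alike, with a median of 3967 bp to the closest peak of any other list. Of these, 19.5% lay within 1000 bp and 56.9% (55.5 to 58.2) within 5000 bp. Members had a median of 9 other merged regions within 50 kb on either side, regions only in wild-type myoblasts also had 9, and regions of all 4 lists had 11. No other merged region lay within that span for 204 members (2.65%).

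Distances to regions listed in all 4 groups were close for both single-genotype sets, with overlapping intervals of the share within 5000 bp. The median was 9147.5 bp for members and 9682.5 bp for regions only in wild-type myoblasts, and 31.1% (30.04 to 32.1) and 29.9% (28.6 to 31.1) lay within 5000 bp. It was 11067.5 bp for the MyoD-null myoblast peaks of regions in both myoblast lists and no myocyte list. Of these peaks, 28.1% (26.99 to 29.2) lay within 5000 bp. The myocyte sets lay nearer, with 5283 bp for regions only in those deposited as MyoD-null and 6940.5 bp for those deposited as wild type. The nearest merged region of a member was one of all 4 lists in 39.3% (38.3 to 40.4) of cases, below the 45.9% that this class holds of all regions. It was another member in 8.80% (8.19 to 9.46), above their 5.52% of all regions, and a region only in wild-type myoblasts in 6.06% (5.55 to 6.62), above 3.76%. Next to regions only in wild-type myoblasts, members were the nearest region in 8.71% (7.98 to 9.50), which overlaps the value for members themselves.

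**Figure D5:**
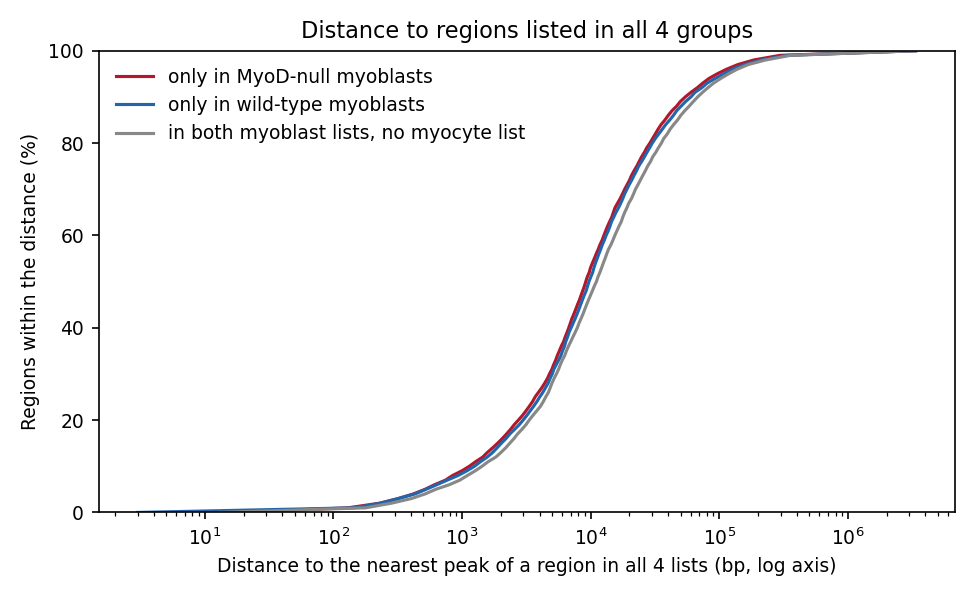
Cumulative percent of regions by distance in bp (log axis) to the nearest peak of a region listed in all 4 groups. Sets are regions only in MyoD-null myoblasts (red), only in wild-type myoblasts (blue) and in both myoblast lists without a myocyte list (grey). The grey curve counts the MyoD-null myoblast peaks of its regions. The red and blue curves run close together, with medians of 9147.5 and 9682.5 bp, and the grey curve is shifted to longer distances, with a median of 11067.5 bp.

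Most windows of 100 kb with a member held only 1. Summits of neighbouring members were a median of 59951 bp apart, and 134 members (1.74%) had another within 1000 bp. For the smaller set of regions only in wild-type myoblasts the median was 107175 bp, and 0.802% had another within 1000 bp. Of the 18224 windows of 100 kb that held a merged region, 5782 held a member, 4269 of them just 1. There were 55 with 4 or more members and 10 with 5 or more, beside 15 with 4 or more regions only in wild-type myoblasts. Since the sets differ in size, whether members cluster more than the mirror set was not tested. The fullest window, chr8:19900001-20000000, held 6 members among 25 regions, beside 2 regions only in wild-type myoblasts and 7 in all 4 lists. These members had 34 to 65 reads and folds of 1.95 to 3.42 over local backgrounds of 11.5 to 28.8, above the genome-wide 8.54. The strongest member of all lay 132732 bp before the start of this window.

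A further 9 windows held 5 members each, and those with the largest share of members among their regions are described. In chr17:13500001-13600000, 5 of 7 regions were members, with 25 to 32 reads and folds of 2.72 to 3.46, all at the genome-wide background, and none of the regions was in all 4 lists. In chr5:116700001-116800000, 5 of 9 regions were members, with 26 to 29 reads and folds of 2.45 to 3.14. The tied windows were not all alike in background: chr11:3000001-3100000, with 5 members among 33 regions, holds the 5 members over a high local background given above. The ranking depended on the window size: of these first 3 windows, 1 overlapped the first 3 with windows of 250 kb and 0 did with windows of 50 kb.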

How the data were processed

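ATAC-seq of MyoD-null and wild-type myoblasts and myocytes was available as 1 peak list per group of 3 samples, and depth per sample is unknown. Peaks were called with MACS2 on mm9, and deepTools was also named, per the submitters' processing notes, without versions. Peak names refer to merged alignments (MAPQ30 tag). Neither the aligner, nor the settings, nor any shift of reads for the transposase is given in the sources used here. The 6 RNA-seq samples of the series were not analysed here.

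The deposited fold enrichment is a ratio of summit reads to local background. The deposited −log10 p and −log10 q belong to each peak. The deposited score repeats the −log10 q and was not used. Summit reads and local background are the whole number and the rate that give both the deposited fold, (reads + 1) / (background + 1), and the Poisson p. The solution matched to within 0.001 on the −log10 scale for 100% of peaks. The genome-wide background came from the spacing of the 12 most frequent folds. The fewest reads follow from the lowest −log10 p in each list.

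Peaks on chromosomes 1 to 19 were merged at an overlap of at least 1 bp. Named regions were the 10 members of highest fold, the 3 widest, the 3 windows of 100 kb with most members, the 3 members closest to another list, the 3 regions with the smallest overlap, and the chromosomes of highest and lowest share. Members of the lowest fold and the lowest q, and those over a high background, were named after their values were seen. The members and rules were chosen with earlier results of these data known. Intervals came from statsmodels 0.14.6, Poisson probabilities from scipy 1.17.1 and tables from pandas 2.3.3 and numpy 2.4.6, under Python 3.11.15, with figures by matplotlib 3.10.9. The merging and read recovery were tested on simulated peaks. The simulated folds and p-values were made with the same formulas, so this checks the code and not whether the authors' peak caller used them. Planned sequence motifs and gene names were not run, since no mm9 genome was used here.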

Additional observations from a re-analysis of the deposited data

Results flagged for a closer look

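The X and Y chromosomes lie outside the chromosomes described above, and both held regions listed only in MyoD-null myoblasts. On chromosome X these numbered 46 of 2598 merged regions, or 1.77% (95% Wilson interval 1.33 to 2.35), below the 5.52% of chromosomes 1 to 19. Regions only in wild-type myoblasts numbered 81 on X, or 3.12% (2.52 to 3.86), beside 3.76% on chromosomes 1 to 19. On chromosome Y the regions only in MyoD-null myoblasts numbered 6 of 27, or 22.2% (10.6 to 40.8), and regions only in wild-type myoblasts 0, with an interval that reaches 12.5%. At regions listed in both myoblast groups, the median log2 ratio of summit reads, MyoD-null over wild type, was 0.04 at 1347 regions of X and 0.77 at 18 regions of Y, beside 0.09 on chromosomes 1 to 19. No test was possible with 1 list per group.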

How the results depend on the processing

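The count of 7690 stayed within 1.5 times under 9 of 14 alternatives. It was 12800 with a reciprocal overlap of 50%, where the median width was 254 bp, and 14367 without the wild-type myoblast list, where the median fold was 3.04 and the width 263 bp. With a q of 1e-5 or lower in the MyoD-null myoblast list alone it was 4988 (median fold 3.12), and with a fold of at least 5 in that list alone it was 1 (fold 5.03, 227 bp). With that fold in all lists it was 575 (median fold 5.24, 430 bp), and such peaks may be listed elsewhere at a lower fold. Summits within 250 bp gave 10163 members and a width of 256 bp, and leaving out the myocytes deposited as wild type gave 11047 members and 247 bp. A q of 1e-5 or lower in all lists gave 7108 members, a fold of 3.13 and 255 bp. Lists of equal length gave 5535 members, a fold of 3.25 and 258 bp. The median distance to another list was 4480 bp between summits. Leaving out the 35 members over a high background, added after seeing the data, gave 7655. Fewer peaks enter under stricter cuts by construction, and other causes were not tested. No paired analysis was possible because each list pools its 3 samples, and for the same reason no replicate could be left out. Depth limits every absence: a site is unlisted below 20, 17 and 15 reads in wild-type myoblasts and the myocytes deposited as MyoD-null and as wild type.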
